A study of Mus musculus with 6 samples.

Results

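The genes described here encode the amino acid, sugar, peptide and monocarboxylate transporters of 11 solute carrier families (Slc1, Slc2, Slc3, Slc5, Slc6, Slc7, Slc15, Slc16, Slc36, Slc38 and Slc43). They were taken by symbol from a deposited table of 7340 genes, of which 45 carried such a symbol. The mouse annotation (GENCODE M21, GRCm38) holds 108 protein-coding genes under the same symbols, and the 63 outside the table were not analysed here. Of the 45, 44 are transporter genes, while Slc7a6os is a neighbour of Slc7a6 on the opposite strand and is not a transporter. RNA was sequenced from 6 wild-type mouse kidney samples in 2 groups, as the sample labels give the tissue, while the design text of the series calls the samples tumors. In 3 samples kidneys with ischaemia-reperfusion injury (IRI, blood flow stopped and then restored) had been given MK-8617, which blocks the prolyl hydroxylase enzymes through which oxygen triggers breakdown of hypoxia-inducible factor (HIF), and 3 samples had IRI alone. Both groups therefore carry the injury, and no uninjured kidney was analysed here. The labels give no dose, sex, age or time, and the table's column names carry the tag 1d. No label ties a replicate to its own animal, and a p-value here covers only sample-to-sample spread, which could be technical. The table lists only genes with a deposited p below 0.05, so shares of changed genes describe that table and not all transporters.

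Solute carriers move small molecules across membranes, either down a gradient or coupled to sodium, protons or a counter-substrate. In the kidney, cells of the proximal tubule take filtered glucose and amino acids up through sodium-coupled carriers of the luminal membrane and release them to the blood through facilitative carriers and exchangers. Lactate crosses membranes with a proton through the monocarboxylate transporters, and glucose enters most cells through the GLUT carriers of the Slc2 family. Several amino acid exchangers work only as a pair of a heavy chain (Slc3) and a light chain (Slc7). Slc2a1 and Slc16a3 are well-known HIF target genes in many cells.

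Transporter transcripts changed in both directions. Of the 16 genes with a mean of at least 10 FPKM, 10 rose with MK-8617 and 2 fell. Over all tested genes of that class 32.9% rose and 48.4% fell. Of the 20 genes at 1 to 10 FPKM, 6 rose and 7 fell, against 40.7% and 30.9% of all tested genes there. Of the 9 genes under 1 FPKM, 2 rose and 4 fell, against 24.9% and 38.5%. Of the 45 genes, all of which passed the filter on low values, 18 rose and 13 fell at an adjusted p below 0.05 in limma's test, and 14 were not past the threshold. Slc6a14, Slc1a3 and Slc16a8 passed that filter only through the group where they are high. Among all 6961 genes tested 74.3% were called, 35.7% higher and 38.7% lower, so the share of the 45 that was called is close to that of the table. Each change given for a gene is a log2 fold change of MK-8617 over IRI alone. Their median over the 45 was 0.35, against -0.31 over all genes tested. Groups were fully apart in 35 of the 45 genes, 20 with the MK-8617 libraries above and 15 with them below, beside 92.5% of all genes tested without overlap, 44.8% above and 47.6% below. The authors' deposited table puts 77.1% of its genes at an adjusted p below 0.05, and 19 of the 45 were higher and 13 lower there. DESeq2 on the reads recovered from the table called 22 higher and 10 lower, and of all genes tested 44.4% higher and 33.2% lower. After removal of the table-wide trends on transcript length and GC content (the trend-free fit), 12 were higher and 15 lower, beside 25.4% higher and 35.1% lower of all genes tested. The counts were 11 higher and 4 lower without MK-8617 replicate 1, 14 and 6 without MK-8617 replicate 2, 11 and 5 without MK-8617 replicate 3, 15 and 6 without IRI replicate 1, 16 and 8 without IRI replicate 2, and 18 and 14 without IRI replicate 3. Calls over all genes tested, 74.3% with every library, were fewer in the same fits, at 49%, 55.3% and 51% without MK-8617 replicate 1, 2 or 3 and at 54.6%, 58.9% and 73.9% without IRI replicate 1, 2 or 3.

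**Figure D1:**
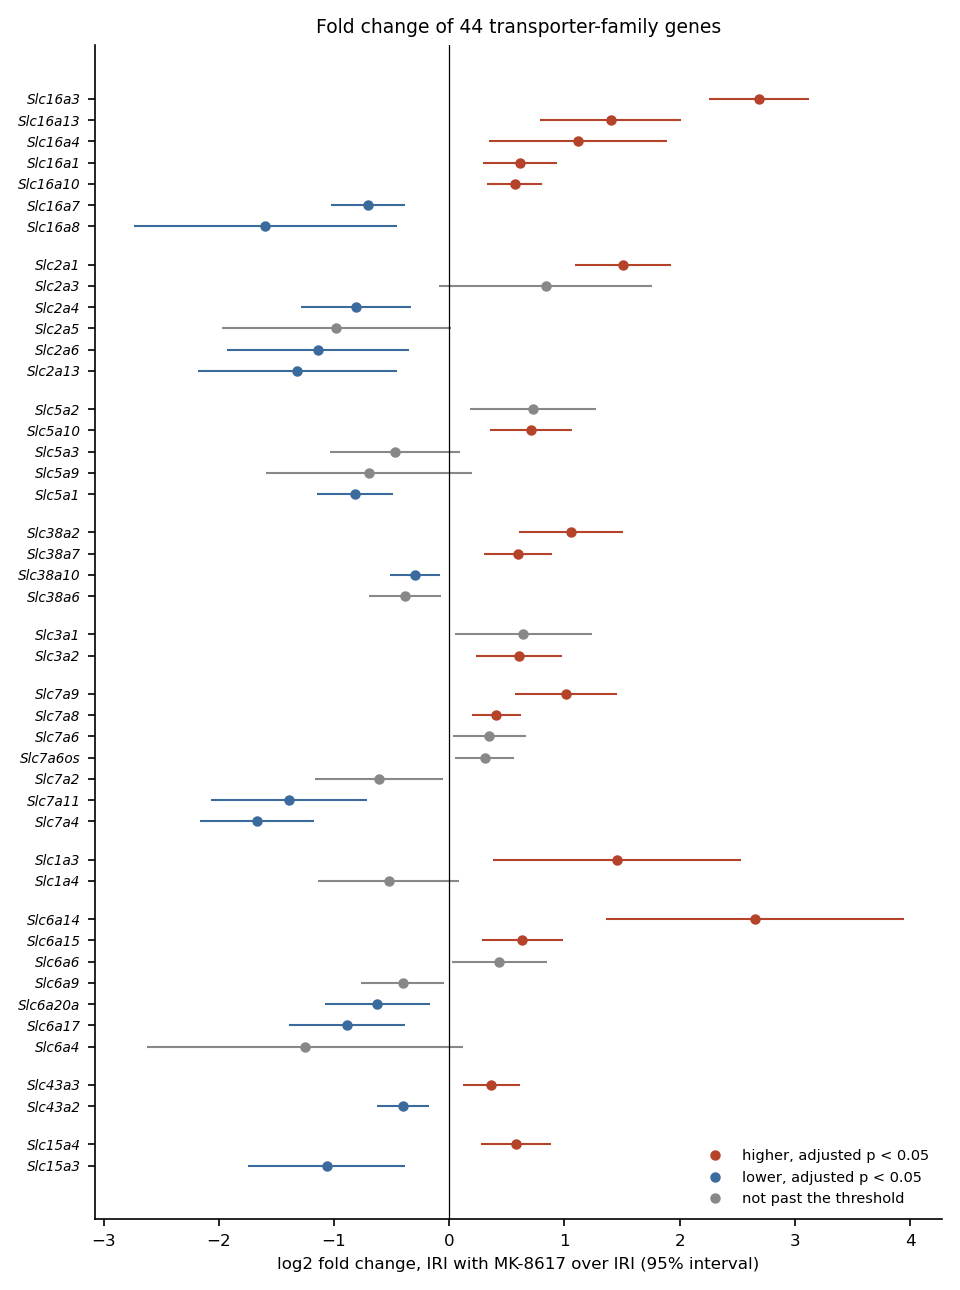
Log2 fold change (MK-8617 with IRI over IRI alone, x axis) of 44 of the 45 genes, grouped by solute carrier family down the page, with bars for the 95% interval of limma's estimate (n = 3 per group). The point of Slc16a3 stands farthest to the right at 2.69 and that of Slc7a4 farthest to the left at -1.67, and 17 genes are coloured as higher and 13 as lower.

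Counted reads per library came to between 16835541 and 17577794 with MK-8617 and between 18620621 and 19508497 with IRI alone. IRI replicate 3 stood apart for the transporters. Its value was less than the mean of the other IRI replicates divided by 1.5 in 10 of the 45 genes (22.2%, against 11.1% of all genes tested) and more than 1.5 times that mean in 6 (13.3%, against 5.2%). The 10 low genes were Slc15a3, Slc16a13, Slc16a4, Slc1a4, Slc2a5, Slc3a1, Slc5a2, Slc5a9, Slc6a4 and Slc7a9. The 6 high genes were Slc2a1, Slc2a13, Slc2a4, Slc5a3, Slc6a17 and Slc7a11. Without IRI replicate 3 the calls of Slc16a13 (1.04), Slc16a4 (0.64), Slc7a9 (0.77), Slc15a3 (-1.34), Slc2a1 (1.72), Slc2a4 (-0.59), Slc6a17 (-0.61) and Slc7a11 (-1.15) held. That of Slc2a13 (-1.11) was lost, and Slc1a4 (-0.89), Slc2a5 (-1.50), Slc5a9 (-1.24) and Slc6a4 (-2.04) became called. Slc3a1, Slc5a2 and Slc5a3 were not called with or without it. Proximal tubule markers were low in the same library. The summed level of the 13 tested of 29 markers was 186755, 183101 and 183126 normalised reads in the MK-8617 libraries, against 95516, 92024 and 36993 in IRI replicates 1, 2 and 3, and 8 of them rose and 1 fell. Marker counts stand beside 35.7% higher and 38.7% lower of all genes tested. Listed markers outside the table could not be counted, so these counts favour changed genes. Macrophage genes fell in 9 of 12 tested (15 listed), with 0 higher. Fibroblast and mural cell genes fell in 6 of 7 tested (12 listed), with 1 higher. The summed macrophage level ranged from 2575 to 3408 normalised reads with MK-8617 and from 4212 to 7458 with IRI alone, and that of the fibroblast list from 5793 to 7237 and from 18084 to 32447. Thick ascending limb genes fell in 6 of 8 tested (10 listed), with 1 higher. Collecting duct genes fell in 4 of 7 tested (15 listed), with 1 higher. Cycling cell genes were lower in 9 of 12, with 0 higher and a median of -2.48. Adipocyte list genes rose in 3 of 3 tested (7 listed, median 1.89). Those tested were Plin1, Cidec and Lipe, while Adipoq, Fabp4, Cfd and Lep were not in the table. Podocyte genes rose in 3 of 5 tested (8 listed), with 1 lower. Distal and connecting tubule genes rose in 3 of 6 tested (9 listed), with 0 lower. Neutrophil genes fell in 2 of 2 tested (8 listed), and 0 of 2 tested endothelial genes (11 listed) were called. Injury genes rose in 1 and fell in 5 of 9 tested (12 listed). Of the 11 lymphocyte and 7 red cell markers 0 were tested. Plin1, a lipid droplet gene counted in the adipocyte list, was near 0 with IRI alone. It was at 38.2 normalised reads on average with MK-8617 and 0.623 in the IRI group, and whether adipocytes differed was not tested. Avpr2 of the collecting duct did not pass the filter on low values and was not tested. It was at 0 in all MK-8617 libraries and at only 2.8, 4.6 and 4.8 normalised reads with IRI alone. In whole tissue fewer cells of a type and less RNA per cell cannot be told apart, and the part of these cells in the transporter values was not tested.

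**Figure D2:**
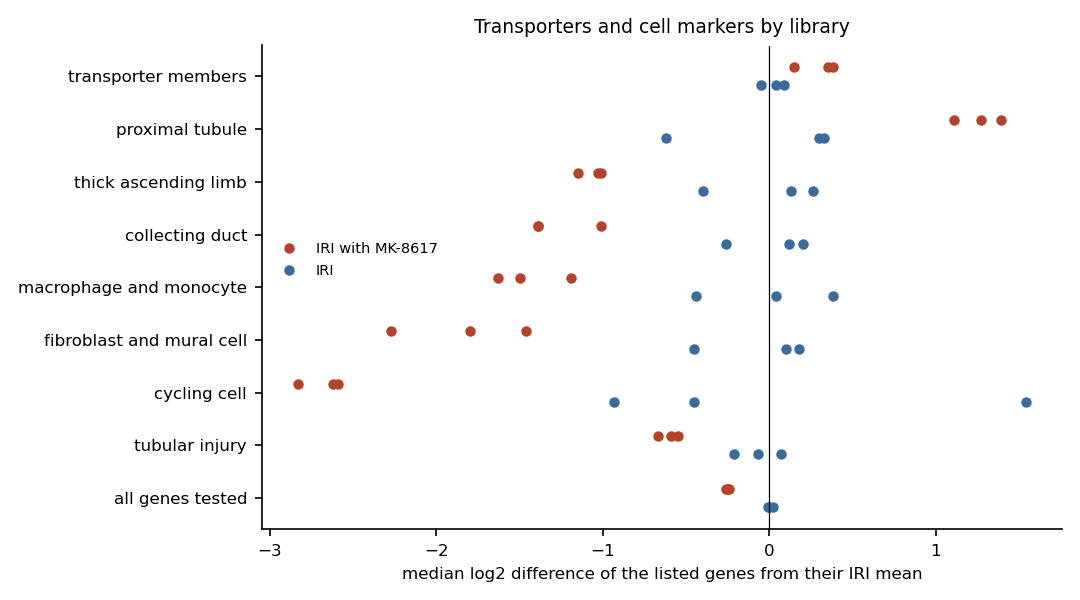
Median log2 difference of each gene list from its mean over the IRI libraries (x axis), 1 point per library, with the MK-8617 libraries drawn above the IRI libraries in each row. The transporter list with Slc7a6os included lies at 0.15 to 0.38 with MK-8617 and at -0.05 to 0.09 with IRI alone. Without Slc7a6os the medians are 0.31, 0.07 and 0.41 with MK-8617 and -0.05 to 0.09 with IRI alone. MK-8617 replicate 2, at 0.07, then falls inside the IRI range. The proximal tubule markers lie at 1.11 to 1.39 with MK-8617 and, with IRI alone, at 0.33, 0.3 and, for replicate 3, at -0.62.

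Among the monocarboxylate transporters 6 of the 8 tested genes rose and 2 fell, out of 14 annotated, with a family median of 0.59. Slc16a3 (ENSMUSG00000025161, chromosome 11, 120948480 to 120960868) encodes MCT4, the low-affinity carrier that glycolytic cells use to export lactate. It had 485, 703 and 633 normalised reads in the MK-8617 libraries, against 84.2, 111 and 83.4 with IRI alone. All MK-8617 libraries lay above all IRI libraries by a wide gap, with replicate 1 the lowest of the MK-8617 group. The difference was a log2 fold change of 2.69 ± 0.19 (SE, adjusted p = 6.49e-05), and over the alternatives tried it was 2.57 to 2.84. Its promoter is printed here because it holds 2 copies of ACGTG, the core of the sequence that HIF binds. Slc16a1, which rose by 0.62, and 1 window of Slc7a6, which was not past the threshold, hold 2 copies too. The window of Slc16a3 runs from 250 bases before the RefSeq start to 50 bases after it (GRCm38.p6, plus strand, chr11:120948817-120949116). Capitals mark ACGTG on either strand, at 27 and 14 bases before the start.
Slc16a3: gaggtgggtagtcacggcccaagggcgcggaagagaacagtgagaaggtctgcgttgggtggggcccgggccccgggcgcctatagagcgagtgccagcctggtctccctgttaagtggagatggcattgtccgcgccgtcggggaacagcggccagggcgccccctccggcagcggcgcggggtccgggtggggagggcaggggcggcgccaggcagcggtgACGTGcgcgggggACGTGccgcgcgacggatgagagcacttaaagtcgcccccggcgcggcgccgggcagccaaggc

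Slc16a13, a monocarboxylate transporter of the liver and kidney whose substrate is less well known, had 1869, 2307 and 1780.0 normalised reads in the MK-8617 libraries, against 1029.8, 895 and 451 with IRI alone. The groups did not overlap, and IRI replicate 3 was the low sample of its group. This gave a log2 fold change of 1.40 ± 0.27 (SE, adjusted p = 0.00553). Slc16a1, which encodes the widely expressed lactate and pyruvate carrier MCT1, had normalised reads of 1903, 1384 and 1932 with MK-8617, against 1079, 1060.2 and 1229.9 with IRI alone. Its groups were close but separate, with MK-8617 replicate 2 nearest to the IRI range, and it rose by 0.62 (adjusted p = 0.0118). Slc16a10, the aromatic amino acid carrier TAT1 of basolateral membranes, rose by 0.57 (adjusted p = 0.00436), and Slc16a4 by 1.12 (adjusted p = 0.0381). The members that fell were Slc16a7, the high-affinity carrier MCT2, at -0.70 (adjusted p = 0.00687), and Slc16a8, the carrier MCT3 of the retinal pigment epithelium, at -1.60 (adjusted p = 0.044). Slc16a8 rested on few reads, with normalised reads of 7.17, 2.13 and 5.32 with MK-8617, against 13.3, 14.6 and 19.2 with IRI alone. Its 14 reads with MK-8617 and 50 in the IRI group gave a ratio of 0.314 (95% interval for counting error only, 0.16 to 0.577). Only the IRI libraries, where it is high, carried Slc16a8 past the filter on low values. The calls were lost for Slc16a1 without MK-8617 replicate 1 (0.55) or 3 (0.53), for Slc16a4 without MK-8617 replicate 1 (1.13), 2 (1.13) or 3 (1.10), and for Slc16a8 without any 1 of the 6 libraries (-1.89 to -1.20), while without IRI replicate 3 Slc16a4 was at 0.64 and still called. Slc16a8 was also not called by DESeq2 on the recovered reads (-1.59), in the authors' deposited table (-1.68) or with the replicate number as a block (-1.60). In the trend-free fit the calls of Slc16a1 (0.37), Slc16a10 (0.34) and Slc16a4 (0.87) were lost, and Slc16a7 was at -1.24. On log2(FPKM + 0.1) the call of Slc16a4 was lost as well (1.08).

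Of the facilitative hexose carriers 1 of 6 tested genes rose and 3 fell, out of 12 annotated, so that the family median was -0.89 while its summed reads were higher. The summed level of the 6 genes was 6365, 5857 and 7668 normalised reads with MK-8617, against 2468, 2577 and 3511 in the IRI group, and most of it was Slc2a1. Slc2a1 (ENSMUSG00000028645, chromosome 4, 119108711 to 119137983) encodes GLUT1, the basal glucose carrier of most cells. It had 5956, 5551 and 7308 normalised reads in the MK-8617 libraries, against 1859, 1928 and 2929 with IRI alone. Every MK-8617 library was above every IRI library, and replicate 3 was the highest of each group. The change was a log2 fold change of 1.51 ± 0.18 (SE, adjusted p = 0.000702), 1.39 to 1.72 over the alternatives tried. Its promoter window (GRCm38.p6, plus strand, chr4:119108495-119108794) is shown beside that of Slc16a3 for its single ACGTG, in capitals, 36 bases before the start.
Slc2a1: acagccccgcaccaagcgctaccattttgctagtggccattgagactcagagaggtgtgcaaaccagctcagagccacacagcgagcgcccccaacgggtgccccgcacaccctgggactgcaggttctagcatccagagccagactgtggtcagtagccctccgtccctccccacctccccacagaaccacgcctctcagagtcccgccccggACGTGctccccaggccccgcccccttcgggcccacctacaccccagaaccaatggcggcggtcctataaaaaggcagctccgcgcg

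The other hexose carriers were far less abundant. Slc2a4, the insulin-responsive carrier GLUT4, had normalised reads of 143, 149 and 137 with MK-8617, against 231, 201 and 342 with IRI alone. The groups did not overlap, and IRI replicate 3 was the highest library. It fell, with a log2 fold change of -0.81 ± 0.21 (SE, adjusted p = 0.0206). Slc2a5, the fructose carrier GLUT5, had normalised reads of 165, 77.9 and 93.6 with MK-8617, against 272, 335 and 103 with IRI alone. IRI replicate 3 lay inside the MK-8617 range, and the difference was not past the threshold (-0.98, 95% interval -1.97 to 0.01, adjusted p = 0.146). Without that library it was -1.50 and past it, and without IRI replicate 2 it was -0.65. The authors' deposited table also called it (-1.08). Slc2a13, the proton-coupled inositol carrier HMIT, had normalised reads of 12.3, 23.5 and 22.3 with MK-8617, against 51.1, 33.7 and 64.2 with IRI alone and fell by 1.32 on the log2 scale (adjusted p = 0.0314). Slc2a6, a carrier of lysosomal membranes, fell too, at -1.14 (adjusted p = 0.0398), with 14.8 ± 4.79 normalised reads with MK-8617, against 32.8 ± 2.37 in the IRI group (SD, n = 3 each). Slc2a3, the high-affinity carrier GLUT3 of neurons, was at 0.84 (adjusted p = 0.194), and leaving out MK-8617 replicate 2 gave 1.25, then called, while leaving out replicate 3 gave 0.55. The falls did not all hold when 1 library was left out, and Slc2a4 was not called without MK-8617 replicate 1 (-0.81), 2 (-0.84) or 3 (-0.78), Slc2a13 without MK-8617 replicate 1 (-1.04) or 3 (-1.44) or IRI replicate 1 (-1.28) or 3 (-1.11), and Slc2a6 without MK-8617 replicate 1 (-1.04) or 3 (-1.0) or any 1 IRI replicate (-1.17, -1.08 and -1.16). Slc2a6 was also not called by DESeq2 on the recovered reads (-1.07) or in the authors' deposited table (-1.15). The same held with the replicate number as a block (-1.14) and in the trend-free fit (-1.08). On log2(FPKM + 0.1) the call of Slc2a13 was lost (-0.91).

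The sodium-coupled sugar carriers of the luminal membrane went different ways. Slc5a1 (ENSMUSG00000011034, chromosome 5, 33104219 to 33162870) encodes SGLT1, the high-affinity glucose carrier of the late proximal tubule. Its values were 612, 744 and 885 normalised reads in the MK-8617 libraries, against 1406, 1345 and 1169 with IRI alone. The MK-8617 libraries were all lower, without overlap, and SGLT1 fell with a log2 fold change of -0.82 ± 0.14 (SE, adjusted p = 0.00362), -1.02 to -0.68 over the alternatives tried. Slc5a2, which encodes SGLT2, the carrier that takes up most filtered glucose in the early proximal tubule, had normalised reads of 2213, 1739.7 and 2458 with MK-8617, against 1168, 1910.0 and 933 with IRI alone. IRI replicate 2 lay within the MK-8617 range, and the difference stood just outside the threshold (0.73, 95% interval 0.18 to 1.27, adjusted p = 0.0521). Without IRI replicate 2 it was 1.02 and past it, as it was with DESeq2 on the recovered reads (0.77) and in the authors' deposited table (0.68). It was also past it with no filter on low values. Of the exon bases of Slc5a2, 20.6% also belong to a gene on the opposite strand, BC017158, and the library kit is not described as strand-specific, so reads of the 2 genes cannot be told apart there.

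Slc5a10, which encodes the fructose and mannose carrier SGLT5 of the kidney, was the third most abundant member per length. It had 3647, 2844 and 3613 normalised reads in the MK-8617 libraries, against 2378, 2174 and 1656 with IRI alone. The groups were separate, and IRI replicate 3 was the lowest. Of its exon bases 16.6% also belong to Fam83g on the opposite strand. It rose by 0.71 ± 0.16 (SE, adjusted p = 0.00993), and leaving out MK-8617 replicate 3 gave 0.65, no longer called. Slc5a3, the myo-inositol carrier SMIT1 that is induced by high osmolality, had normalised reads of 1758, 2606 and 3208 with MK-8617, against 3001, 2748 and 4727 with IRI alone. IRI replicate 3 was high and MK-8617 replicate 1 low, the other libraries overlapped, and the difference was -0.47, 95% interval -1.03 to 0.10, adjusted p = 0.253. It was -0.23 without MK-8617 replicate 1, -0.23 without IRI replicate 3 and -0.80, then past the threshold, in the trend-free fit. Slc5a3 passed it also with the replicate number as a block. Slc5a9, the mannose carrier SGLT4, was at -0.70 (adjusted p = 0.303), with IRI replicate 3 low at 119 normalised reads against 355 and 393 in the other IRI replicates. Without that library it was -1.24 and past the threshold, while it was -0.46 without IRI replicate 1 and -0.39 without IRI replicate 2. The authors' deposited table also called it (-0.88). In all, 1 of the 5 tested genes of the family rose and 1 fell, out of 13 annotated.

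Ratios within a library were taken for 4 pairs of related genes, chosen with the results known. The ratio of Slc5a2 to Slc5a1 in FPKM, reads scaled to gene length and library total, was 5.13, 3.31 and 3.94 with MK-8617, against 1.18, 2.01 and 1.13 with IRI alone. That of Slc16a3 to Slc16a1 was 0.212, 0.423 and 0.273 with MK-8617, against 0.065, 0.087 and 0.056. Both ratios were higher in every MK-8617 library, although Slc16a3 and Slc16a1 both rose. The ratio of Slc2a1 to Slc2a5 was 35.0, 69.1 and 75.8 with MK-8617 and 6.64, 5.58 and 27.7 with IRI alone, also without overlap. Exact two-sided permutation tests over the 6 samples gave p = 0.1 for these 3 pairs, the smallest value that 3 against 3 samples allow. Because the changes of these genes were known when the pairs were chosen, the p-values are no support. How often ratios of other gene pairs separate the groups was not computed. The ratio of Slc7a9 to Slc3a1, the light and heavy chain of 1 exchanger, overlapped between the groups, at 0.514, 0.665 and 0.41 with MK-8617 and 0.379, 0.366 and 0.47 with IRI alone (exact permutation p = 0.2).

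**Figure D3:**
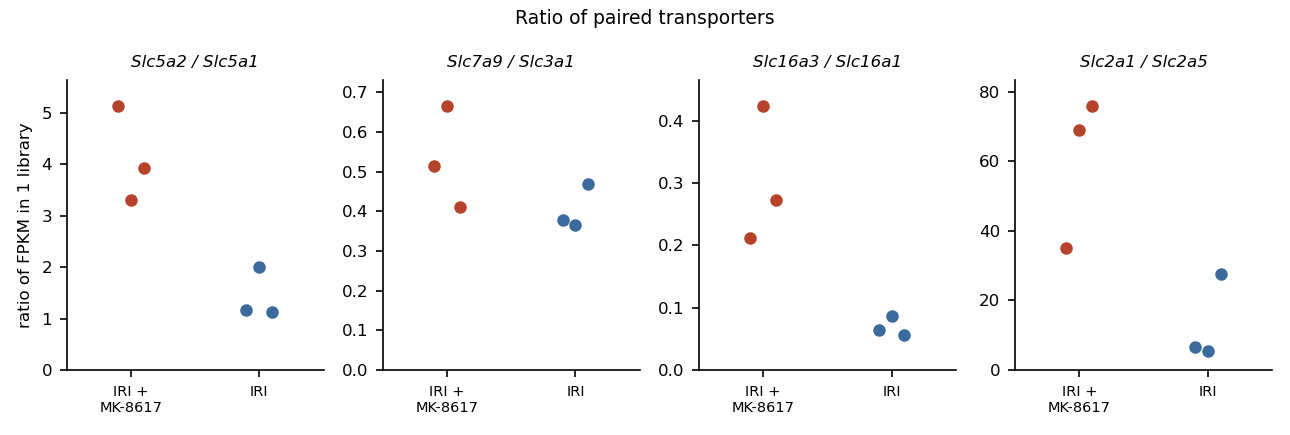
Ratio of the FPKM of 2 transporter genes within each library (y axis, linear from 0), with the 3 MK-8617 libraries left of the 3 IRI libraries in each panel. The Slc5a2 to Slc5a1 ratio is 3.31 to 5.13 with MK-8617 and 1.13 to 2.01 with IRI alone, and the Slc7a9 to Slc3a1 ratio overlaps.

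Of the heavy chains of the amino acid exchangers 1 of 2 rose, and of the light chains and cationic carriers of the Slc7 family 2 of 6 tested genes rose and 2 fell, out of 15 annotated. Slc3a2 (ENSMUSG00000010095, chromosome 19, 8706882 to 8723369) encodes 4F2hc, the heavy chain that carries several light chains to the basolateral membrane, and it was the most abundant member per length. It had 6937, 6153 and 5835 normalised reads in the MK-8617 libraries, against 4378, 3189 and 5059 with IRI alone. The groups were separate but close, and IRI replicate 2 was lowest. Slc3a2 rose with a log2 fold change of 0.61 ± 0.17 (SE, adjusted p = 0.0252). Slc7a8, its light chain LAT2 for neutral amino acids, had normalised reads of 1652, 1648 and 1856 with MK-8617, against 1282, 1303 and 1289 with IRI alone. The IRI libraries were close to each other and all below the MK-8617 libraries, and the rise was small at 0.41 ± 0.09 (SE, adjusted p = 0.0113). Slc7a9, which encodes the luminal cystine and dibasic amino acid light chain b0,+AT, had normalised reads of 1324, 1427 and 1134 with MK-8617, against 726, 784 and 456 with IRI alone. Its groups did not overlap, IRI replicate 3 was lowest, and it rose by 1.01 ± 0.20 (SE, adjusted p = 0.00551). Slc3a1, the heavy chain rBAT that pairs with it, had normalised reads of 2221, 1849 and 2383 with MK-8617, against 1653, 1849 and 837 with IRI alone. IRI replicate 2 was level with MK-8617 replicate 2, IRI replicate 3 lay far below all other libraries, and the difference was not past the threshold (0.64, 95% interval 0.05 to 1.24, adjusted p = 0.105). Without IRI replicate 3 it was 0.29, DESeq2 on the recovered reads placed it past the threshold (0.67), and 26.5% of its exon bases also belong to Prepl on the opposite strand. The call of Slc3a2 was lost without MK-8617 replicate 1 (0.54), 2 (0.62) or 3 (0.66) or without IRI replicate 1 (0.65) or 2 (0.42).

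The light chain that fell was xCT. Slc7a11 (ENSMUSG00000027737, chromosome 3, 49892526 to 50443614) exchanges glutamate for cystine, the precursor of glutathione. It had 38.9, 36.3 and 30.8 normalised reads in the MK-8617 libraries, against 93.7, 67.4 and 131 with IRI alone. The groups were separate, and IRI replicate 3 was highest. This was a log2 fold change of -1.39 ± 0.30 (SE, adjusted p = 0.00877). Slc7a4, a relative of the cationic amino acid carriers whose own transport activity is not settled, fell too, with normalised reads of 36.9, 38.4 and 42.5 with MK-8617, against 135, 116 and 129 with IRI alone. Its groups were far apart and tight, with a log2 fold change of -1.67 ± 0.22 (SE, adjusted p = 0.000992), and 13.3% of its exon bases also belong to P2rx6 on the opposite strand. Both calls held in every alternative that tested them. Slc7a2, the cationic carrier CAT2, was at -0.61 (adjusted p = 0.1), Slc7a6, the light chain y+LAT2, had normalised reads of 281, 295 and 317 with MK-8617, against 232, 214 and 255 with IRI alone and was at 0.35 (adjusted p = 0.0985), and its neighbour Slc7a6os was at 0.31 (adjusted p = 0.0757). In the trend-free fit Slc7a2 was at -0.84 and Slc7a6os at 0.56, both past the threshold, and Slc7a6os passed it also without MK-8617 replicate 3 (0.39), with edgeR (0.38) and with DESeq2 (0.40) on the recovered reads. The promoter of Slc7a11 (GRCm38.p6, minus strand, chr3:50443564-50443863) is shown for its 2 copies of TGATGNAA, a composite site of ATF4, the transcription factor of amino acid shortage, in capitals at 66 and 47 bases before the start, the second on the opposite strand.
Slc7a11: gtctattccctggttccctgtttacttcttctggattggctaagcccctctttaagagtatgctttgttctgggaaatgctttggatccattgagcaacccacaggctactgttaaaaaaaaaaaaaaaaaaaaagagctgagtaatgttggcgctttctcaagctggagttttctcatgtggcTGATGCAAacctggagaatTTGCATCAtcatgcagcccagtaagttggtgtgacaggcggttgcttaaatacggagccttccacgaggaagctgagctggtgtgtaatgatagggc

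Of the sodium-coupled neutral amino acid carriers 2 of the 4 tested genes rose and 1 fell, out of 11 annotated. Slc38a2 encodes SNAT2, which is induced by amino acid shortage and by high osmolality. It had 6004, 4965 and 8113 normalised reads in the MK-8617 libraries, against 3008, 2420.1 and 3666 with IRI alone. The groups did not overlap, and replicate 3 was the highest of each. The rise was 1.06 ± 0.20 (SE, adjusted p = 0.00498). Slc38a7, the lysosomal glutamine carrier SNAT7, had normalised reads of 529, 534 and 465 with MK-8617, against 380.5, 326 and 306 with IRI alone, without overlap, and rose by 0.59 (adjusted p = 0.00962). Slc38a10 fell by 0.29 on the log2 scale (adjusted p = 0.0485), with normalised reads of 1531, 1510.2 and 1535 with MK-8617, against 1988, 1927 and 1710.1 with IRI alone. Its groups were separate, but it was past the threshold only with no filter, with either other pseudocount, without IRI replicate 3 (-0.36) and in the trend-free fit (-0.37), and not without MK-8617 replicate 1 (-0.30), 2 (-0.29) or 3 (-0.30) or IRI replicate 1 (-0.25) or 2 (-0.27). Slc38a6 was at -0.39 (adjusted p = 0.0669), and at -0.52 and past the threshold in the trend-free fit.

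In the Slc1 family, which carries glutamate and small neutral amino acids, 2 of 7 annotated genes were tested. Slc1a3, the glutamate carrier EAAT1 of glia, was the least abundant of the 45 per length, with normalised reads of 23.6, 13.9 and 39.3 with MK-8617, against 5.68, 8.2 and 10.5 with IRI alone. The groups did not overlap, but the counts were small, with 73 reads in all with MK-8617 and 26 with IRI alone, a ratio of 3.15 (95% interval for counting error only, 1.99 to 5.13). Only the MK-8617 libraries, where it is high, carried Slc1a3 past the filter on low values. Slc1a3 rose by 1.46 (adjusted p = 0.0495), and the call ended without MK-8617 replicate 1 (1.46) or 3 (1.10) or IRI replicate 1 (1.25) or 2 (1.48). It was also not called on log2(FPKM + 0.1) (0.75), with a pseudocount of 0.5 (1.51) or in the trend-free fit (1.26). Slc1a4, the neutral amino acid exchanger ASCT1, had normalised reads of 351, 389.6 and 381 with MK-8617, against 662, 730.5 and 323 with IRI alone. IRI replicate 3 lay below the MK-8617 libraries and the other IRI replicates far above them, and the difference was -0.53, 95% interval -1.14 to 0.08, adjusted p = 0.223. Without IRI replicate 3 it was -0.89 and past the threshold, and without IRI replicate 2 it was -0.31.

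Of the sodium- and chloride-coupled carriers of the Slc6 family 2 of 7 tested genes rose and 2 fell, out of 21 annotated. Slc6a14 encodes ATB0,+, a concentrating carrier of neutral and cationic amino acids in lung and colon. It had 11.3, 29.9 and 22.3 normalised reads in the MK-8617 libraries, against 3.79, 0.911 and 2.88 with IRI alone. All MK-8617 libraries were higher, yet the IRI values stand for 4, 1 and 3 reads. It passed the filter on low values only through the MK-8617 libraries, where it is high, so its call is no independent support. The 60 reads with MK-8617 and 8 in the IRI group gave a ratio of 8.4 (95% interval for counting error only, 4 to 20.4), and limma a log2 fold change of 2.65 (adjusted p = 0.00886), which was 1.75 with a pseudocount of 5 and 1.60 on log2(FPKM + 0.1), both still called. Slc6a15, the branched-chain amino acid carrier B0AT2 of the brain, rose by 0.63 (adjusted p = 0.0154), and the call ended without MK-8617 replicate 2 (0.59) or 3 (0.60) and in the trend-free fit (0.41). Slc6a17, a vesicular carrier of neutral amino acids in neurons, had normalised reads of 292, 292 and 288 with MK-8617, against 504, 394 and 791 with IRI alone. The MK-8617 values were nearly the same in the 3 libraries, and the IRI values were higher and scattered, with replicate 3 highest. It fell, with a log2 fold change of -0.89 ± 0.22 (SE, adjusted p = 0.0174), and the call was lost without MK-8617 replicate 1 (-0.89), 2 (-0.89) or 3 (-0.88).

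Slc6a6, the taurine carrier TauT, which handles an osmolyte of the kidney, was the most abundant of the family per length. It had 5935, 4799.5 and 7043 normalised reads in the MK-8617 libraries, against 4981, 3399 and 4804 with IRI alone. MK-8617 replicate 2 lay within the IRI range, and the difference was not past the threshold (0.43, 95% interval 0.02 to 0.85, adjusted p = 0.115). DESeq2 (0.52) and the fit with the replicate number as a block called Slc6a6. The value was 0.26 without IRI replicate 2 and 0.25 in the trend-free fit. Slc6a20a, the imino acid carrier SIT1, had normalised reads of 156, 136 and 140.4 with MK-8617, against 192, 289.6 and 196 with IRI alone and fell by 0.62 on the log2 scale (adjusted p = 0.0466). The groups were separate, and IRI replicate 2 stood above the rest. That call was lost without any 1 MK-8617 replicate (-0.68, -0.58 and -0.61) or IRI replicate 1 (-0.72) or 2 (-0.43), with edgeR (-0.58) and with DESeq2 (-0.56). A filter at 5 CPM on average and the replicate number as a block also ended it. The annotation places the related gene Slc6a20b beside it, and whether reads were shared between them was not tested. Slc6a9, the glycine carrier GLYT1, had normalised reads of 208, 197 and 228 with MK-8617, against 321, 238 and 285 with IRI alone, without overlap, and was at -0.40 (adjusted p = 0.0955), and 27.8% of its exon bases also belong to Ccdc24 on the opposite strand. Slc6a4, the serotonin carrier, was at -1.25 (adjusted p = 0.191), with 103, 76.5 and 16.3 normalised reads in IRI replicates 1, 2 and 3, and without replicate 3 it was -2.04 and past the threshold, against -0.75 without replicate 1. It was past the threshold also with DESeq2 on the recovered reads (-1.54) and in the authors' deposited table (-1.64).

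In each of the last families 1 gene rose and 1 fell. Slc43a3, a purine nucleobase carrier, had normalised reads of 1851, 1678 and 1785 with MK-8617, against 1366, 1231 and 1545 with IRI alone and rose by 0.36 (adjusted p = 0.0361). Slc43a2, the facilitative carrier LAT4 of large neutral amino acids, had normalised reads of 1368, 1462 and 1569 with MK-8617, against 2093, 1854 and 1869 with IRI alone and fell by 0.40 on the log2 scale (adjusted p = 0.0168). Neither pair of groups overlapped, and both differences were small. Slc15a4, the endolysosomal histidine and peptide carrier PHT1 of immune cells, had normalised reads of 402, 372 and 363 with MK-8617, against 268, 268 and 224 with IRI alone and rose by 0.58 (adjusted p = 0.012). Its relative Slc15a3, PHT2, also known from macrophages, had normalised reads of 68.6, 47.0 and 71.2 with MK-8617, against 143, 172 and 87.2 with IRI alone and fell, with a log2 fold change of -1.06 ± 0.30 (SE, adjusted p = 0.0289). The groups were separate for both, with IRI replicate 3 the lowest IRI library, and 28.1% of the exon bases of Slc15a3 also belong to Tmem132a on the opposite strand. The macrophage markers given above, 9 of 12 of them lower, moved with Slc15a3, and their part in its value was not tested. Calls were lost for Slc43a3 without any 1 MK-8617 replicate (0.33, 0.40 and 0.36) or IRI replicate 1 (0.36) or 2 (0.28), for Slc43a2 without MK-8617 replicate 1 (-0.35) or 2 (-0.40) or IRI replicate 1 (-0.35), for Slc15a4 without MK-8617 replicate 1 (0.54), and for Slc15a3 without any 1 MK-8617 replicate (-1.14, -0.87 and -1.17) or IRI replicate 1 (-0.99) or 2 (-0.86). That of Slc43a3 was also lost on log2(FPKM + 0.1) and in the trend-free fit. Of the 4 annotated Slc36 genes 0 were in the table.

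**Figure D4:**
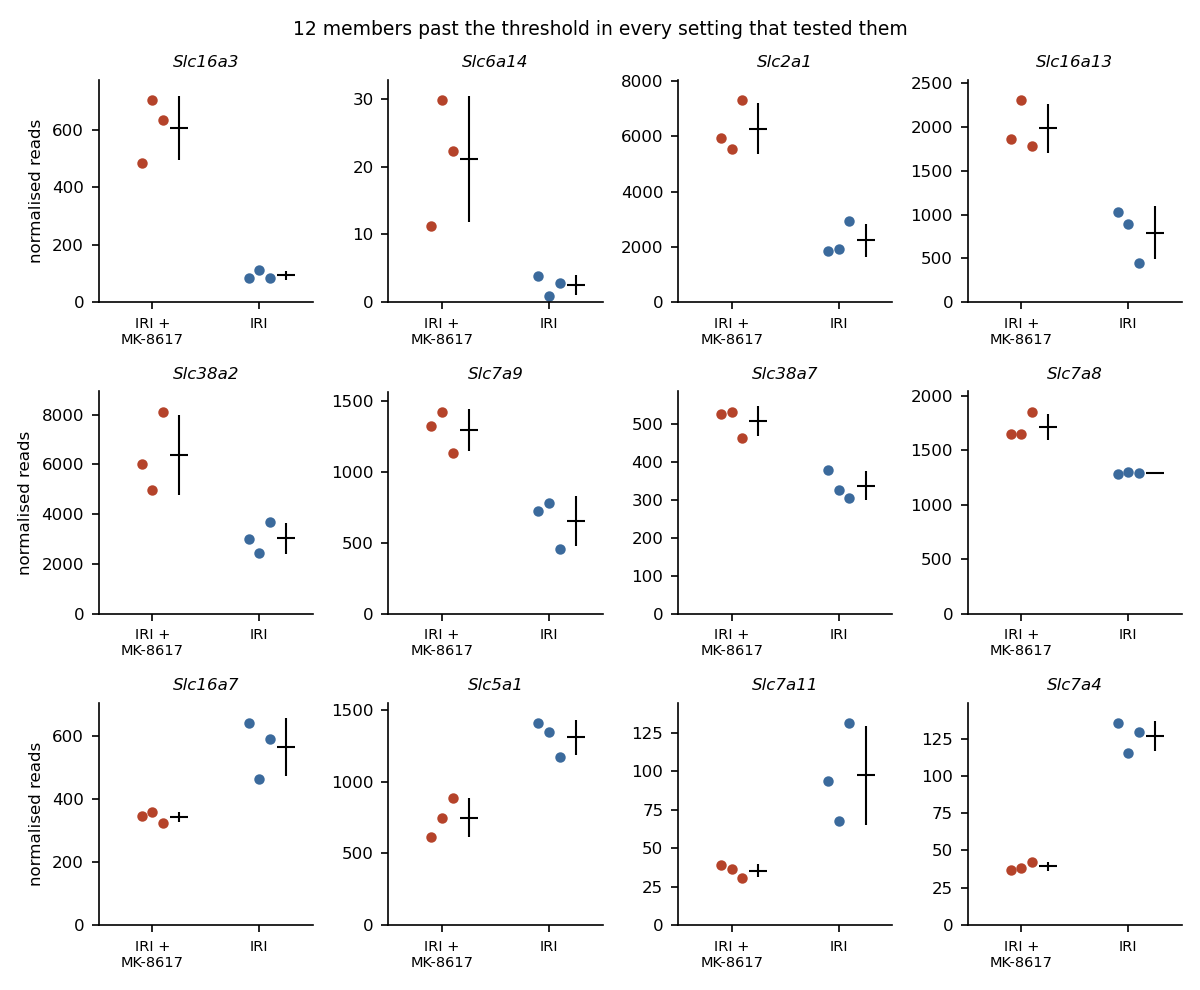
Normalised reads (y axis, linear from 0) in each library of the 12 genes that were past the threshold in the main test and in every alternative that tested them, with MK-8617 left of IRI alone, a dash for the mean and a bar for the SD (n = 3). The first 8 panels, from Slc16a3 to Slc7a8, are higher with MK-8617, and Slc16a7, Slc5a1, Slc7a11 and Slc7a4 are lower, without overlap in any panel. Slc6a14 passed the filter on low values only through the MK-8617 libraries.

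Levels per length, as the mean over the 6 libraries, ran from 0.11 FPKM for Slc1a3 to 83.2 FPKM for Slc3a2. Slc3a2 had 99.3 ± 8.74 FPKM with MK-8617 and 67.1 ± 15 FPKM with IRI alone (SD, n = 3 each), and Slc2a1 had 99.5 ± 15.1 FPKM with MK-8617 and 35.9 ± 9.46 FPKM with IRI alone. With MK-8617 these 2 were level, while with IRI alone Slc3a2 led and Slc2a1 was level with Slc3a1, within their spread. Slc5a10 had 79.2 ± 10.9 FPKM with MK-8617 and 49.3 ± 9.05 FPKM with IRI alone, and Slc3a1 had 51.8 ± 6.81 FPKM with MK-8617 and 35.3 ± 13.2 FPKM with IRI alone. At the other end Slc6a14 had 0.342 ± 0.151 FPKM with MK-8617 and 0.0414 ± 0.0242 FPKM with IRI alone, and Slc1a3 had 0.167 ± 0.0846 FPKM with MK-8617 and 0.0536 ± 0.0158 FPKM with IRI alone. Slc16a3 had 6.34 ± 1.16 FPKM with MK-8617 and 0.983 ± 0.167 FPKM with IRI alone, and Slc16a1 had 21.9 ± 3.94 FPKM with MK-8617 and 14.3 ± 1.13 FPKM with IRI alone. Of the 16 genes with a mean of at least 10 FPKM over the 6 libraries 10 rose and 2 fell, while over all tested genes of that class 32.9% rose and 48.4% fell. Of the 9 genes under 1 FPKM 2 rose and 4 fell, against 24.9% and 38.5% of all tested genes of that class. The median level was 17.4 FPKM in the 18 genes that rose and 2.14 FPKM in the 13 that fell, whereas over all genes tested those that rose had a median of 6.56 and those that fell 9.48 FPKM. Their median transcript length was 3383 bases in those that rose and 4104 in those that fell, against 3333 and 1948 over all genes tested.

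**Figure D5:**
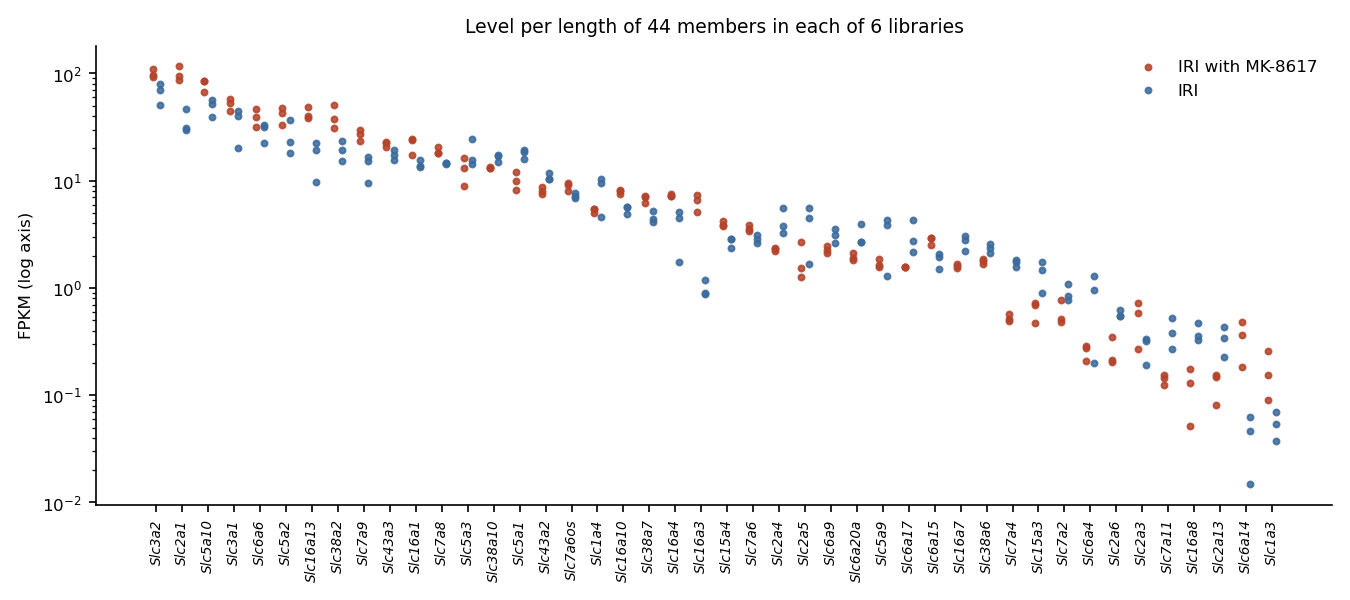
FPKM (y axis, log scale) of 44 of the 45 genes in each of the 6 libraries, ordered from left to right by the mean over all libraries, with MK-8617 points left of IRI points for each gene. Slc3a2, Slc2a1 and Slc5a10 lead the order, and Slc6a14 and Slc1a3 end it.

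A promoter window was available for 32 of the 45 genes, 39 windows in all, credited to RefSeq on GRCm38.p6. ACGTG, searched on both strands with overlapping matches counted once, was in 6 of 16 windows of genes that rose (37.5%), in 2 of 11 of genes that fell (18.2%) and in 2 of 12 of genes not past the threshold (16.7%), against 19.6% of all 32851 windows. The 2 windows of genes not past the threshold were overlapping windows of 1 gene, Slc7a6. The 32851 windows were not limited to genes of the table, and differences between these shares were not tested. Besides Slc16a3 and Slc2a1 the genes that rose with ACGTG were Slc16a1, Slc1a3, Slc38a7 and Slc3a2, and those that fell with ACGTG were Slc38a10 and Slc5a1. TGATGNAA was in 0 of 16, 1 of 11 and 1 of 12 windows, against 3.97% of all, and those windows belonged to Slc7a11, which fell, and Slc1a4. The 45 genes lay on 17 chromosomes, with 8 of them on chromosome 11, of which 3 rose and 3 fell.

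The genes around these transporters also went both ways, read here by count and median beside the 35.7% higher and 38.7% lower of all genes tested. Of 27 genes of the amino acid response led by ATF4, 19 were tested, 9 rose and 7 fell, with a median of 0.42. Phgdh, the first enzyme of serine synthesis, had a log2 fold change of -1.55 ± 0.15 (SE, adjusted p = 0.000281) and Psat1, the next, of 0.83 ± 0.09 (adjusted p = 0.000495). Vldlr, a lipoprotein receptor, rose by 0.86 ± 0.11 (adjusted p = 0.000843), and the transcription factor Atf5 was at -0.93 ± 0.12 (adjusted p = 0.00111). Of 21 partners and trafficking regulators 13 were tested, 4 rose and 6 fell, with a median of 0.28. Nedd4l, a ubiquitin ligase of membrane carriers, rose by 0.87 ± 0.11 (adjusted p = 0.000725), and so did Klhl24 by 0.87 ± 0.1 (adjusted p = 0.000659). Gipc1, a scaffold that binds GLUT1, was at -0.90 ± 0.11 (adjusted p = 0.00067), and Cd44, a surface glycoprotein that binds xCT and the monocarboxylate carriers, at -1.66 ± 0.22 (adjusted p = 0.000982). Bsg, the chaperone basigin that MCT1 and MCT4 need to reach the membrane, had 9716 ± 547 normalised reads with MK-8617, against 8018 ± 252 in the IRI group (SD, n = 3 each), without overlap, and at 0.28 was not past the threshold (adjusted p = 0.0684). Pdzk1ip1, an activator of SGLT2, fell to 2651 ± 102 normalised reads with MK-8617, against 6459 ± 2263 with IRI alone (adjusted p = 0.00527), while Slc5a2 was not past the threshold.

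Amino acid sensing genes of the mTORC1 pathway, which couples amino acid supply to growth at the lysosome, were lower in 8 and higher in 4 of 14 tested, out of 33, with a median of -0.36. Castor2, of the arginine sensor family, had a log2 fold change of -1.52 ± 0.12 (SE, adjusted p = 9.88e-05), and the Ragulator subunits Lamtor4 and Lamtor2 of -1.25 ± 0.14 (adjusted p = 0.000442) and -1.09 ± 0.13 (adjusted p = 0.000629). Fnip1, a partner of folliculin, rose by 0.76 ± 0.1 (adjusted p = 0.000954). Of 12 transcription factors of the proximal tubule 4 were tested, 3 rose and 1 fell. Ppara rose by 1.19 ± 0.18 (adjusted p = 0.00177) and Hnf4g by 0.95 ± 0.23 (adjusted p = 0.0151), and Esrra, a regulator of mitochondrial genes, was at -1.16 ± 0.11 (adjusted p = 0.000283).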

How the data were processed

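RNA from 3 MK-8617 and 3 IRI kidney samples was analysed, grouped by title, while the treatment field of the second and the third MK-8617 sample reads MK8618 and MK8619. Per the submitters' processing notes, DESeq2 1.20.0 was used, as were featureCounts 1.5.0-p3, HISAT2 2.0.5, CASAVA 1.8 and fastp, and the builds named there are human while the identifiers are mouse. The signal values deposited are each gene's count over a size factor of its library (0.937 to 1.098), and multiplying back gave whole reads for 100% of values (tolerance 0.001), equal to the deposited raw count of IRI replicate 3 in 7340 of 7340 genes. Counted reads per library were then taken from the deposited FPKM values and GENCODE M21 exon lengths. The authors also deposited p-values, raw and adjusted, with log2 fold changes, for genes with p below 0.05 only, which imply an adjustment over 18811 genes. In R 4.3.3, limma 3.58.1 with trend and robust options was fitted to log2(value + 1) of the 6961 genes that passed filterByExpr of edgeR 4.0.16 on recovered reads, with Benjamini-Hochberg adjustment over 18811 genes and a threshold of 0.05, so fold changes are on the log2(value + 1) scale and understate those of low genes. A floor of 3 reads corresponded to 0.154 to 0.178 CPM of counted reads, and intervals and floors cover counting error only. The fit was tested on simulated data. On recovered reads edgeR called 5208 genes of the table, 2875 higher and 2333 lower, against 2482 and 2691 in the limma fit. The 13 columns with no name or values stayed out, and 11 symbols stored as dates were restored by identifier. Replicates of a group differed by a chi-square of 16.91 to 46.72 per degree of freedom, so none was counted as a duplicate. Alternatives were edgeR with TMM and DESeq2 1.42.0 on recovered reads, other pseudocounts, FPKM, other filters, each library left out, a replicate block, and length and GC trends removed with mgcv 1.9.3. Genes with per-library values were Slc16a3, the up to 3 genes of each family with the highest mean FPKM and its up to 2 called genes with the largest absolute fold change. Other genes with such values were chosen after these were seen. Of each pathway list the up to 4 genes with the smallest adjusted p are named, and Bsg and Pdzk1ip1 were added after their values were seen. The values of 1 transporter gene and 1 transcription factor, which stay in the counts, are not reported here. The members and lists were chosen with earlier results of these data known. Coordinates are whole genes on GRCm38, and gene counts do not resolve exons.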

Additional observations from a re-analysis of the deposited data

How the results depend on the processing

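Of the 31 transporter genes called, 12 stayed past the threshold in every alternative that tested them, 19 lost the call in at least 1, and of the 14 others 12 passed it in at least 1. No direction reversed in any of the 45 genes under the 16 alternatives. The table lists only genes with a deposited p below 0.05 in this same comparison, and the alternatives used the same libraries. Steady directions were therefore favoured in advance and are no independent support. The number higher was 11 to 18 and the number lower 4 to 14 with 1 library left out, where 21.4% to 35.1% of all genes tested were higher and 27.6% to 38.8% lower. A filter at 5 CPM on average tested 36 of the 45, and 6 were lower. The median of the 45 was 0.44 with DESeq2 on recovered reads and 0.25 after the length and GC trends were removed, where the median of all genes tested was -0.12, against -0.31 in the main analysis and -0.33 to -0.23 in the other alternatives. With the replicate number as a block, 19 were higher and 10 lower. That fit lost the calls of Slc16a8, Slc2a6, Slc38a10 and Slc6a20a and gained those of Slc5a3 and Slc6a6. Same-numbered samples deviated together with r = 0.021, 0.116 and 0.115 for replicates 1, 2 and 3. Differently numbered samples gave lower values, from -0.129 to 0.02. No label gives the numbers as pairs, and the main analysis did not take them as such. The cause of the changes was not tested.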
